A study of Zea mays with 24 samples.

Results

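At stage V5, 188 alternative splicing (AS) events of the maize leaf stood apart at a maximum daily temperature (MDT) of 35°C. Their isoform balance there differed from the balances at 31°C and at 37°C, which could differ from each other. The events were picked from the V5 table by the inclusion share, which is the percentage of an event's reads that came from the inclusion isoform. An event needed a share in all 12 V5 libraries, no fewer than 20 reads per library on average, and a mean share at 35°C that lay at least 10 percentage points above, or at least 10 points below, the means at both other MDTs. In addition, none of the 3 libraries at 35°C could overlap with any of the 6 libraries at 31°C and 37°C. Of 28092 V5 events in 9208 genes, 4234 had the values and the reads the rule asks for, and 188 of these, in 151 genes, met it (4.44%). Inclusion was higher at 35°C in 73 of them (1.72%) and lower in 115 (2.72%). The tables list a value only where both isoforms had reads, so a share in all 12 libraries, which 4506 events had, is itself a filter. Because the V5 shares at 31°C, 35°C and 37°C chose the events, those shares are given as a description without a test, and tests were made only in the V4 libraries, which the rule did not use.

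In AS, one gene yields several mature RNAs because exons, introns or splice sites are used in some transcripts and not in others. In intron retention (IR) the inclusion isoform keeps an intron, in exon skipping (ES) it keeps a cassette exon, and in alternative 5′ or 3′ splice site events (A5SS, A3SS) it carries the longer form of an exon. In mutually exclusive exons (MXE), 1 of 2 neighbouring exons is used. Serine/arginine-rich (SR) proteins bind exons and recruit the spliceosome, and in plants their own transcripts are frequent targets of AS when temperature changes. Retention of an intron or loss of an exon can shift the reading frame or bring in an early stop codon, so that the isoform encodes a different protein or is degraded.

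The plants were the inbred line W22, raised under 4 MDTs from 31°C to 37°C in steps of 2°C with nights 10°C cooler. Poly(A) RNA was taken from the middle section of the youngest leaf that had expanded fully, at V4 (20 days after germination, DAG) and at V5 (27 DAG). Each of the 8 combinations had 3 libraries, and no pair of libraries held identical reads. All plants shared the genotype, and nothing but the MDT and the stage was varied. According to the methods, 2 growth chambers ran at each MDT, and the labels do not name the chamber, so an effect of the chambers and an effect of the MDT cannot be told apart. Reads summed over the events ranged from 2662780 to 3378578 per library at V5 and from 1683992 to 2818842 at V4. The tables hold reads of events and no level per gene, and none of the genes with events was paired with a description of a leaf marker, so the tissue was not checked here. The spread between libraries is given as an SD. Since no molecular identifiers were used, reads may be copies of 1 molecule and their number covers counting error only.

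From 31°C to 37°C, the median share of the 73 higher events was 39.2%, 44.3%, 65.1% and 44.2%. For the 115 lower events the medians were 69.4%, 58.1%, 45.8% and 66.1%. The smaller of the 2 differences, 35°C against 31°C or against 37°C, had a median of 15.1 points over all members and exceeded 20 points in 53 of them. At 37°C the mean share had passed back beyond the 31°C mean in 66 events, and it lay within 5 points of that mean in 102. Of the 53 events over 20 points, 13 were higher and 40 lower at 35°C. With 33°C included, 35°C was the most extreme of the 4 MDTs in 179 events. In bulk RNA, a change of splicing within cells and a change in the cells present cannot be told apart. The members had a median of 70.5 reads per library, against 94.3 for all events that could have been members, and their mean reads ranged from 20.8 to 2290.

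**Figure D1:**
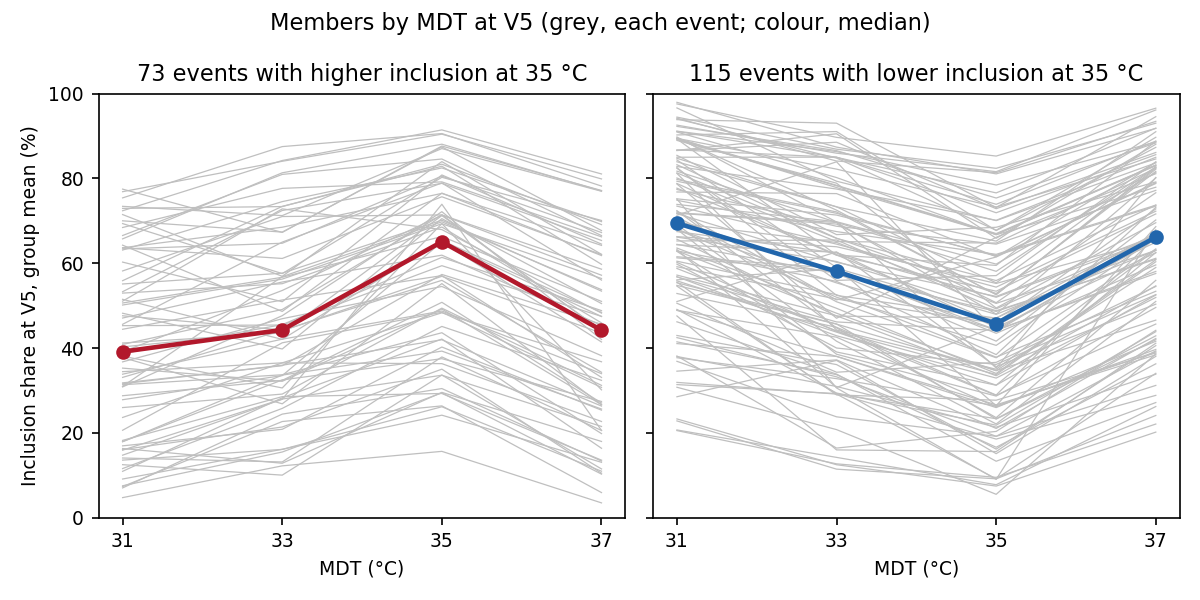
Mean inclusion share (%) of each member at V5 against MDT (°C), for the 73 events higher at 35°C (left) and the 115 lower at 35°C (right). Grey lines are single events and the coloured line is their median, which peaks at 65.1% and reaches its lowest value of 45.8%, respectively, at 35°C. The rule fixes the shape between 31°C, 35°C and 37°C.

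Just inside the limit, the smaller difference was 10.06 points for an IR event of Zm00001d012897, 10.09 points for an A5SS event of Zm00001d038805 and 10.14 points for an A3SS event of Zm00001d053634. Just outside it, the smaller difference was 9.99 points for an IR event of Zm00001d023953, 9.98 points for an A5SS event of Zm00001d030666 and 9.96 points for an A3SS event of Zm00001d049211. The events on both sides of the limit were alike in size, and the limit marks no gap.

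Of 5 genes that the study names as splicing regulators, SR45a, SR34 and SPFcc1-like held members, all lower at 35°C, whereas SRP (Zm00001d051139) and SCL33 (Zm00001d022243) had 1 and 2 events with enough reads and no member. SR45a (Zm00001d047847) encodes an SR-like RNA-binding protein, and its transcript held 2 members. Both are A5SS events on the plus strand of chromosome 9 (B73 RefGen_V4), in which the longer exon form carries an extra segment at chr9:143197907-143198113 (207 bases) or at chr9:143197907-143198116 (210 bases). The 2 long forms end 3 bases apart and are set against the same short form, so both events share its reads. For the segment of 207 bases the inclusion share was 72.1%, 73.0% and 72.1% in the 3 libraries at 31°C and 42.6%, 46.7% and 45.1% at 33°C. It was 23.7%, 23.3% and 23.8% at 35°C and 54.6%, 59.6% and 53.7% at 37°C. The groups did not overlap, and the share at 35°C was 48.8 points below that at 31°C and 32.4 points below that at 37°C. These values rest on 1194 to 3816 reads per library. The second event gave 69.1% ± 0.93 (SD, n = 3) at 31°C, 22.1% ± 0.44 at 35°C and 51.0% ± 3.93 at 37°C. On the authors' length-adjusted inclusion level ψ, the event of 207 bases had means of 52.3%, 25.4%, 11.4% and 34.8% from 31°C to 37°C, so that ψ was lowest at 35°C as well. From 31°C to 37°C, reads of the short form were 113, 347, 860 and 353 per 1000000 event reads, whereas reads of the long form were 298, 281, 266 and 448. The short form therefore differed most between the MDTs. Of the other SR45a events with enough reads, a cassette exon of 93 bases at chr9:143198022-143198114 had mean shares of 18.5%, 6.93%, 1.73% and 11.2% in the same order of MDT, below the 10-point limit against 37°C. An A3SS event of 6 bases further upstream (chr9:143197346-143197351) stayed between 68.1% and 74.2%.

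SR34 (Zm00001d040672), another SR protein gene, held 1 member, an exon of 177 bases at chr3:57180443-57180619 (minus strand). This exon was included in 57.3%, 58.7% and 64.6% of the event reads at 31°C and in 44.1%, 40.4% and 47.4% at 33°C. At 35°C it was included in 31.3%, 34.1% and 35.9%, and at 37°C in 58.0%, 63.4% and 59.6%. The libraries at 31°C and 37°C overlapped with each other and stood clear of those at 35°C. Per 1000000 event reads, those that skip the exon numbered 11.0, 50.9, 62.9 and 32.2 from 31°C to 37°C, and those that include it were 16.5, 40.3, 32.0 and 49.0. Both isoforms therefore had fewer reads at 31°C than at the 3 higher MDTs, and the balance and not the total returned at 37°C. In the same gene, an intron of 510 bases (chr3:57179933-57180442) had mean retention shares of 84.5%, 86.8%, 94.8% and 87.3%, highest at 35°C but less than 10 points above 37°C.

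The gene named SPFcc1-like (Zm00001d048415), a splicing factor, held 3 members on the minus strand of chromosome 9 that overlap. A retained intron of 655 bases (chr9:155890550-155891204) contains both the cassette exon of 53 bases (chr9:155890848-155890900) and the A3SS segment of 39 bases (chr9:155890550-155890588), and all 3 events are set against the same skipping reads. Retention of the intron was 82.0%, 79.5% and 74.8% at 31°C and 38.4%, 60.4% and 39.0% at 35°C, and it was 68.7%, 73.7% and 76.0% at 37°C. One library at 35°C thus lay closer to 37°C than the other 2 did. The cassette exon had mean shares of 46.2%, 33.9%, 13.3% and 27.2% from 31°C to 37°C, and the A3SS segment of 42.5%, 33.2%, 19.2% and 39.4%. Skipping reads of this region were 9.66 per 1000000 at 31°C, 21.8 at 35°C and 14.0 at 37°C.

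**Figure D2:**
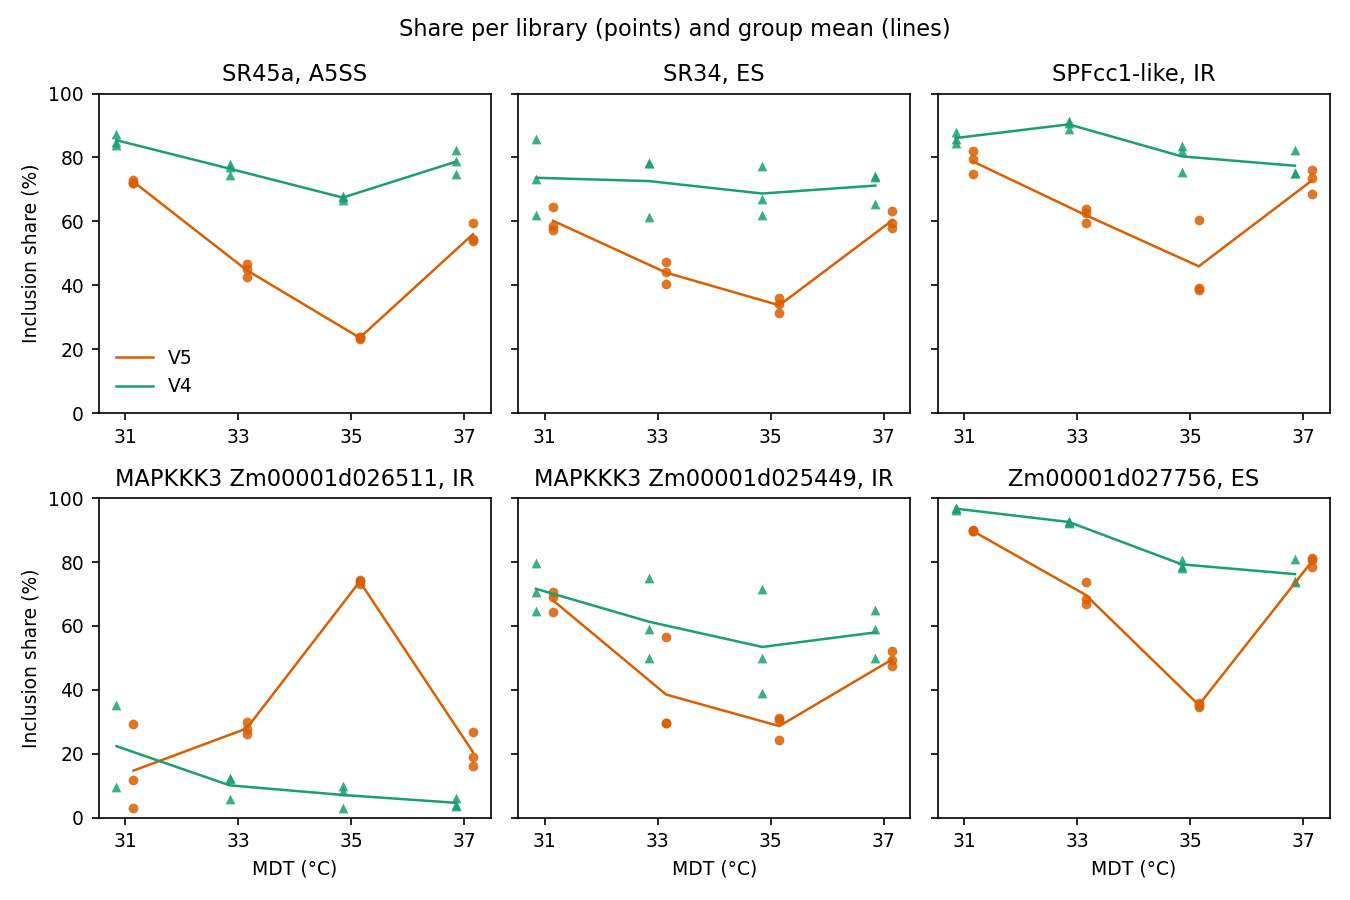
Inclusion share (%) of 6 events against MDT (°C) in each library at V5 (circles) and V4 (triangles), with lines through the means of the 3 libraries. At V5 the SR45a event has a mean of 23.6% at 35°C and 56.0% at 37°C, and the 2 MAPKKK3 genes go in opposite directions. At V4 the SR45a event has a mean of 67.5% at 35°C.

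The 2 genes named MAPKKK3 each held 1 member, in different directions. Zm00001d026511 and Zm00001d025449 are named after a kinase at the head of a mitogen-activated protein kinase cascade. An intron of 114 bases in Zm00001d026511 (chr10:147387187-147387300, minus strand) was retained in 11.9%, 3.03% and 29.4% of reads at 31°C and in 27.9%, 29.9% and 26.1% at 33°C. It was retained in 74.1%, 73.2% and 74.5% at 35°C and in 16.1%, 18.9% and 26.8% at 37°C. Its inclusion reads were 44.5 per 1000000 at 35°C and between 1.94 and 5.77 at the other 3 MDTs, while the spliced reads stayed between 11.7 and 15.7. Here the difference lay in the retained form, which at 35°C was 4.11 above the mean of 31°C and 37°C on the log2 scale, and the spliced form differed by 0.38. An intron of 561 bases in Zm00001d025449 (chr10:118893470-118894030, minus strand) went the other way. From 31°C to 37°C it was retained in 68.0% ± 3.30 (SD, n = 3), 38.6% ± 15.5, 28.7% ± 3.77 and 49.6% ± 2.42.

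The homolog of CAU1 (Zm00001d004109), an arginine methyltransferase that in Arabidopsis acts on histones, held 2 IR members on the minus strand of chromosome 2. The intron of 83 bases (chr2:83269347-83269429) was retained in 73.9%, 78.9% and 94.7% of reads at 31°C, 47.4%, 53.8% and 40.0% at 35°C, and 74.1%, 59.1% and 68.2% at 37°C, on 15 to 30 reads per library. For the intron of 464 bases (chr2:83271137-83271600) the means from 31°C to 37°C were 48.9% ± 4.88 (SD, n = 3), 38.0% ± 8.14, 26.6% ± 5.46 and 38.4% ± 5.07. Zm00001d046300 belongs to the phosphatidylethanolamine-binding protein family, which in Arabidopsis includes the flowering signal FT. Its intron of 362 bases (chr9:79371056-79371417, plus strand) was retained in 69.4% ± 1.80 at 31°C, 50.5% ± 4.96 at 35°C and 63.0% ± 6.99 at 37°C. In all, 16 gene identifiers named by the study were looked up, 12 of them had events with enough reads, and 7 held members. These 7 genes held 11 of the 55 events of the list that could have been members (20.0%, against 4.44% over all genes), 10 lower and 1 higher at 35°C. The study chose these genes on the same samples, so the share is no independent evidence.

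Only 10 of the 151 genes were named or described in the sources used here, and the others are given by identifier. Zm00001d053751, a homolog of the Arabidopsis defence regulator SNI1, held an exon of 210 bases whose share was 68.0% at 31°C, 40.6% at 35°C and 65.9% at 37°C, on 8 to 51 reads per library and with an SD of 18.5 points at 31°C. Zm00001d045054, described as a terpene synthase, held an intron retained in 11.6% at 31°C, 45.1% at 35°C and 32.4% at 37°C. Zm00001d045102, described as actin binding, held an intron retained in 71.3%, 44.0% and 66.2% at the same MDTs. These 3 genes were chosen for their descriptions after their values were seen.

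Among genes without a description, the exon of 134 bases of Zm00001d027756 (chr1:12714974-12715107, plus strand) combined a large shift with many reads. It was included in 89.8%, 89.9% and 89.6% at 31°C, and in 68.5%, 73.8% and 66.9% at 33°C. At 35°C the values were 35.9%, 34.8% and 35.2%, and at 37°C they were 81.4%, 78.5% and 80.7%, on 503 to 882 reads per library. No 2 of the 4 groups overlapped. Skipping reads were 27.7, 48.7, 142 and 52.7 per 1000000 event reads from 31°C to 37°C, and inclusion reads 243, 112, 77.4 and 214. The isoforms thus differed in opposite directions. An exon of 37 bases of Zm00001d017829 (chr5:207955730-207955766, plus strand) was included in 84.3% ± 3.15 (SD, n = 3) at 31°C, 26.4% ± 11.7 at 35°C and 68.6% ± 7.29 at 37°C. An A5SS segment of 289 bases and an intron of 384 bases of that gene, set against the same skipping reads, had means of 89.5%, 52.6% and 82.5% and of 81.7%, 58.1% and 82.7%. An exon of 67 bases of Zm00001d002534 (chr2:14895648-14895714, plus strand) was included in 89.3% ± 2.24, 59.5% ± 4.40 and 88.7% ± 4.00.

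The widest shift belonged to an MXE event of Zm00001d027957 between exons of 42 bases each (one at chr1:18281928-18281969, minus strand), and its libraries were also the most uneven of all members. The inclusion share was 73.7%, 57.0% and 94.7% at 31°C, 18.4%, 7.22% and 1.54% at 35°C, and 89.4%, 25.2% and 89.1% at 37°C. At 33°C the values were 6.00%, 73.3% and 12.5%, and at V4 single libraries ranged from 2.50% to 96.3%. The SD at 33°C was 37.1 points.

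The remaining large shifts were as follows. Retention at 35°C was lower for introns of Zm00001d012979 (753 bases, 81.2% at 31°C, 35.0% at 35°C and 63.2% at 37°C), Zm00001d052198 (504 bases, 83.2%, 52.9% and 81.6%) and Zm00001d045808 (494 bases, 79.8%, 52.7% and 82.2%). An A3SS segment of Zm00001d003678 (451 bases, 62.8%, 31.3% and 62.5%) and an A5SS segment of Zm00001d027230 (123 bases, 84.7%, 55.4% and 82.7%) were lower too. Higher at 35°C were an intron of Zm00001d035470 (99 bases, 38.1%, 69.3% and 30.2%), an intron of Zm00001d038805 (440 bases, 41.2%, 71.2% and 44.2%), an A3SS segment of Zm00001d050936 (35 bases, 30.9%, 72.2% and 42.0%) and an A5SS segment of Zm00001d021247 (125 bases, 40.9%, 71.4% and 44.1%). Of these, Zm00001d003678, Zm00001d035470, Zm00001d050936 and Zm00001d021247 had means of 23.8 to 32.2 reads per library, so their single shares are coarse.

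Of the 151 genes, 23 held 2 or more members, 60 in all and up to 4 in a gene. Such members often share reads, and the 188 events had 164 distinct sets of skipping reads. Zm00001d028034 held 3 overlapping forms of a skipped exon (274, 267 and 173 bases) and an A5SS segment, all lower at 35°C. The longest form had shares of 70.6%, 69.2% and 70.6% at 31°C, 37.9%, 47.1% and 39.9% at 35°C, and 65.9%, 74.7% and 69.9% at 37°C, and the form of 267 bases had means of 63.6%, 34.0% and 60.8%. Zm00001d037625 also held 4 lower events, of which an A5SS segment of 335 bases had means of 68.0% at 31°C, 44.3% at 35°C and 65.7% at 37°C. In Zm00001d019792 and Zm00001d047973 the 3 members of each were all higher at 35°C.

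In 2 genes the members went in different directions. In Zm00001d002534, the exon described above and an A5SS segment were lower at 35°C, while an intron of 109 bases next to that exon (chr2:14895539-14895647) was higher, with 68.4% at 31°C, 79.2% at 35°C and 66.2% at 37°C. A further intron of that gene, of 73 bases, had 34.5%, 48.3% and 36.8%. In Zm00001d044195 an A3SS segment of 52 bases had 27.8%, 65.0% and 41.4%, and the exon of 47 bases directly beside it had 31.9%, 9.19% and 24.1%. The short form of the A3SS event uses the upstream junction of that exon, so these directions are tied as well. Zm00001d017829 (3 members, all lower), Zm00001d038805 (3, all higher), Zm00001d050936 (2, both higher) and Zm00001d021247 (2, both higher) were described above, as were the 3 study-named genes with several members. The remaining genes with several members were Zm00001d012897, Zm00001d014742, Zm00001d029041, Zm00001d029482, Zm00001d030666, Zm00001d032659, Zm00001d045551, Zm00001d051627, Zm00001d053634 and Zm00001d053657, each with members of 1 direction.

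By type, 92 members were IR, 38 ES, 28 A3SS, 26 A5SS and 4 MXE. IR made up 48.9% of the members and 32.3% of the events that could have been members, and A3SS 14.9% and 29.4%. The directions by type are given without a test. Of 38 ES members 36 had lower inclusion at 35°C, which means more skipping, as against 66.8% of all 963 ES events with enough reads whose mean was lower at 35°C than the average of 31°C and 37°C. IR members were split into 44 higher and 48 lower (52.2% lower), A3SS members into 19 and 9 (32.1%), and A5SS members into 7 and 19 (73.1%). Among all events with enough reads, counted by the mean as for ES, 50.3%, 53.1% and 52.5% were lower, respectively. The shares for all events count any difference of means, without the rule's minimum difference or its condition on overlap. They are therefore not a like comparison for the members. At 31°C, all ES events with enough reads had a median share of 89.3%. So high a share leaves little room for the rise the rule asks for, so a lower direction was favoured in advance for such events. The median share of the 36 lower ES members was 79.5% at 31°C, 54.7% at 35°C and 78.5% at 37°C.

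**Figure D3:**
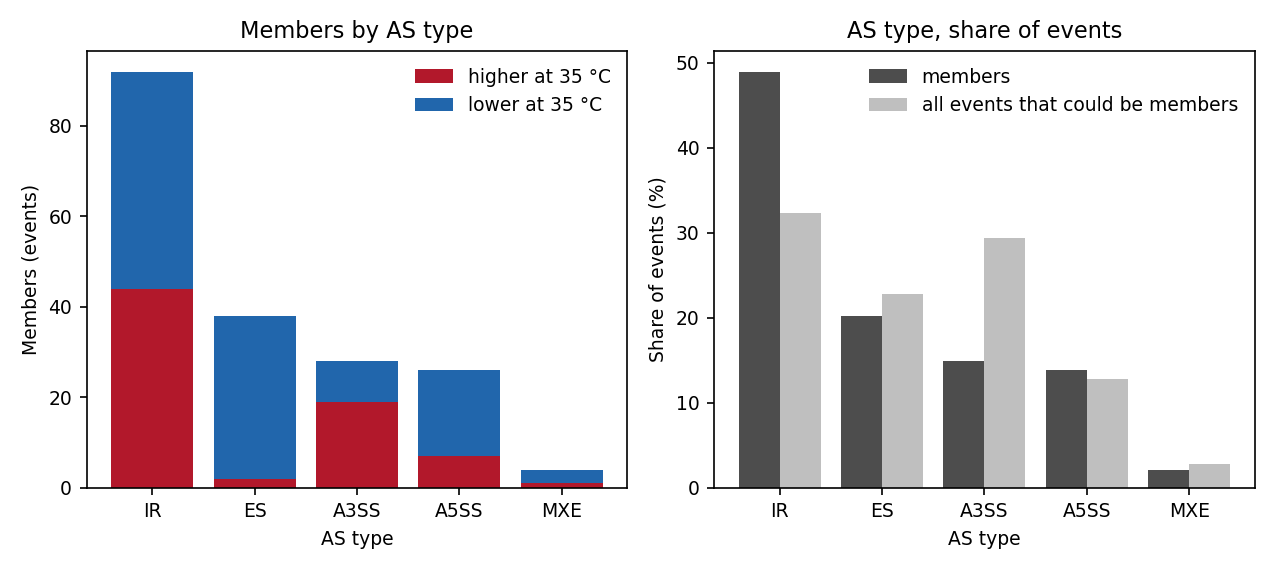
Number of members by AS type, split into higher (red) and lower (blue) inclusion at 35°C (left), and each type's share (%) of the members (dark) and of the 4234 events that could have been members (light, right). Retained introns make up 48.9% of the members and 32.3% of the eligible events, and 36 of 38 skipped exons are lower.

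The lengths of the variable segments were compared with those of all eligible events as a description. Member introns had a median of 373 bases, against 379 for all eligible introns, and ranged from 69 to 4020 bases. The introns retained more at 35°C were shorter than those retained less, with medians of 234 and 456.5 bases. Of these, 8 of the 44 and 3 of the 48 were at most 100 bases long, beside 16.2% of all eligible introns. Their median shares at 31°C were 40.2% and 63.1%, so the room to rise or fall under the rule was unlike. The difference in length was not tested. Member cassette exons had a median of 93 bases against 106, and 16 of 38 were a multiple of 3 (42.1%, against 39.5% of eligible exons). For A3SS members the sites lay a median of 35 bases apart, against 15 in eligible events, and 9 of 28 distances were a multiple of 3 (32.1%, against 55.2%). A5SS distances had medians of 124 and 34 bases, and 42.3% were a multiple of 3 in both sets. The share is not adjusted for length, so its level cannot be compared between events of different length.

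Inclusion and skipping reads were scaled to 1000000 event reads of each library to see which isoform differed. In the 73 higher events inclusion reads at 35°C differed from the mean of 31°C and 37°C by a median of 0.70 on the log2 scale and skipping reads by -0.63. In 43 of them inclusion reads were higher and skipping reads lower, in 15 both were higher and in 15 both were lower. In the 115 lower events the medians were -0.83 for inclusion reads and 0.58 for skipping reads. In 94 of these, inclusion reads were lower and skipping reads higher, in 6 both were higher and in 15 both were lower. The rule favours such opposite differences, since it asks for a shift in the ratio of the same reads, so these counts are a description. The length-adjusted sum of both differed by less than 1 on the log2 scale in 65 of 73 and 108 of 115 events.

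**Figure D4:**
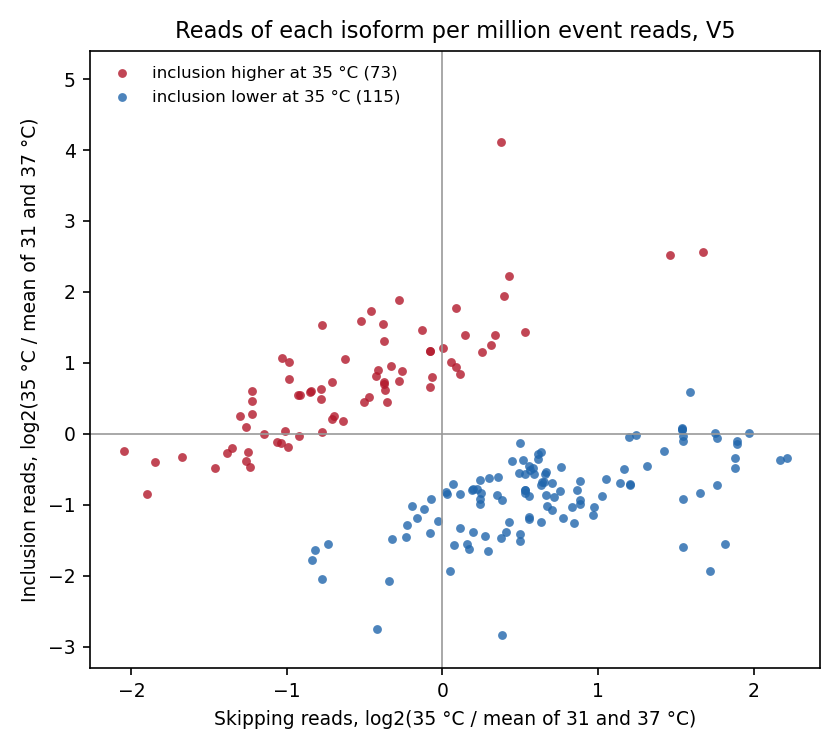
Difference at 35°C from the mean of 31°C and 37°C at V5, as log2 of reads per 1000000 event reads, for skipping reads (horizontal) and inclusion reads (vertical) of each member, red for higher and blue for lower inclusion at 35°C. Most blue points lie at the lower right (94 of 115), and the topmost point is the MAPKKK3 intron at 4.11.

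The libraries at 33°C entered the rule only by having a value, but their difference from 31°C or 35°C shares libraries with it and is given without a test. The 33°C mean lay between the 31°C and 35°C means in 152 members, beyond 31°C in 27 and beyond 35°C in 9. At the median it had covered 43.6% of the way from 31°C to 35°C, with quartiles of 18.4% and 64.3%. In 408 other events that differed between 35°C and 31°C by the same limits, described below, this median was 52.7%. A partial shift at 33°C was therefore not particular to the members. In 77 of the 188 members the libraries at 33°C and 31°C did not overlap, beside 22.2% of all eligible events. In 72 of these 77 members the 33°C libraries lay on the side of 35°C. For the lower members, 54 of 115 had libraries at 33°C that were all below those at 31°C, as were 12.7% of all eligible events, and 1 had them all above. For the higher members, 18 of 73 had them all above, as were 9.47% of all eligible events, and 4 all below. The SR45a, SR34 and Zm00001d027756 events were among those already lower at 33°C, whereas the introns of Zm00001d035470 and Zm00001d038805 had means of 30.6% and 43.6% at 33°C, beside 38.1% and 41.2% at 31°C.

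By the same limits, 596 events differed between 35°C and 31°C, 262 higher and 334 lower, and the 188 members made up 31.5% of them. In the other 408 the 37°C mean had kept a median of 74.2% of the way from 31°C to 35°C, against 10.2% in the members, a contrast that the rule itself fixes. In 162 of the 596 events the 37°C mean lay within 25% of the way from 31°C or had passed back beyond it, and in 117 it was as far from 31°C as the 35°C mean or farther.

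In plants a week younger, the V4 libraries tested 35°C against the mean of 31°C and 37°C for the same events. A call on this contrast does not need 35°C to stand apart from both. All 188 members are listed at V4, and 172 had enough reads and values for the contrast of 35°C with the mean of 31°C and 37°C. The inclusion reads of 2 libraries at 31°C were recovered from the deposited ψ. In a quasi-binomial model with Benjamini-Hochberg adjustment over all 5807 events tested (FDR of at most 0.01 and a difference above 5 points), 5 of the 172 members were DAS events, as were 0.362% of all events. Over all events 0.121% were higher and 0.241% lower at 35°C. Of the 5 members, 4 were lower at 35°C as at V5 and 1 was lower where V5 was higher. At an unadjusted p under 0.05 there were 33 of the 172 members, against 10.8% of all events. The members had passed the V5 filters on values, reads and shift. All V4 events are therefore not a like set, here and in the comparisons below.

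Both SR45a events kept their direction at V4. The share of the event of 207 bases was 83.9%, 84.8% and 87.5% at 31°C, 68.0%, 67.7% and 66.7% at 35°C, and 82.4%, 74.7% and 78.9% at 37°C. The libraries at 35°C were below all others, and the difference from the mean of 31°C and 37°C was -14.6 points (FDR = 4.38e-07). For the event of 210 bases it was -16.5 points (FDR = 7.60e-07), on largely the same reads. The exon of Zm00001d027756 was included in 97.0%, 96.7% and 96.3% at 31°C, 80.8%, 78.8% and 78.2% at 35°C, and 74.0%, 73.8% and 80.9% at 37°C. Its contrast was -7.19 points (FDR = 3.75e-05), but the V4 libraries at 35°C and 37°C overlapped, and 37°C was 20.5 points below 31°C (FDR = 7.43e-06), so it did not return at V4 as it did at V5. The intron of 1094 bases of Zm00001d020438 (chr7:114217159-114218252, minus strand) was retained in 55.9%, 53.4% and 59.7% at 31°C, 46.1%, 51.4% and 47.1% at 35°C and 57.5%, 54.5% and 57.4% at 37°C in the V4 plants, a contrast of -8.21 points (FDR = 0.00594). At V5 its means were 49.1%, 21.8% and 43.9%. This last call was lost when 31°C replicate 3 (FDR = 0.0173), 35°C replicate 1 (FDR = 0.0462) or 35°C replicate 3 (FDR = 0.0389) was left out, with edgeR (FDR = 0.157) and with a replicate block (FDR = 0.0120).

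The intron of 520 bases of Zm00001d040979 (chr3:87676068-87676587, minus strand) turned its direction between the stages. At V5 it was retained in 37.6%, 40.2% and 35.5% at 31°C, 53.7%, 57.3% and 54.6% at 35°C and 26.5%, 28.7% and 24.7% at 37°C. At V4 it was retained in 44.5%, 44.4% and 48.1% at 31°C, 12.9%, 14.2% and 14.9% at 35°C and 20.9%, 19.4% and 20.9% at 37°C. The V4 contrast was -19.0 points (FDR = 1.17e-10), and the difference between the stages was not tested. At 33°C both stages were low, with means of 26.9% at V5 and 12.7% at V4.

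**Figure D5:**
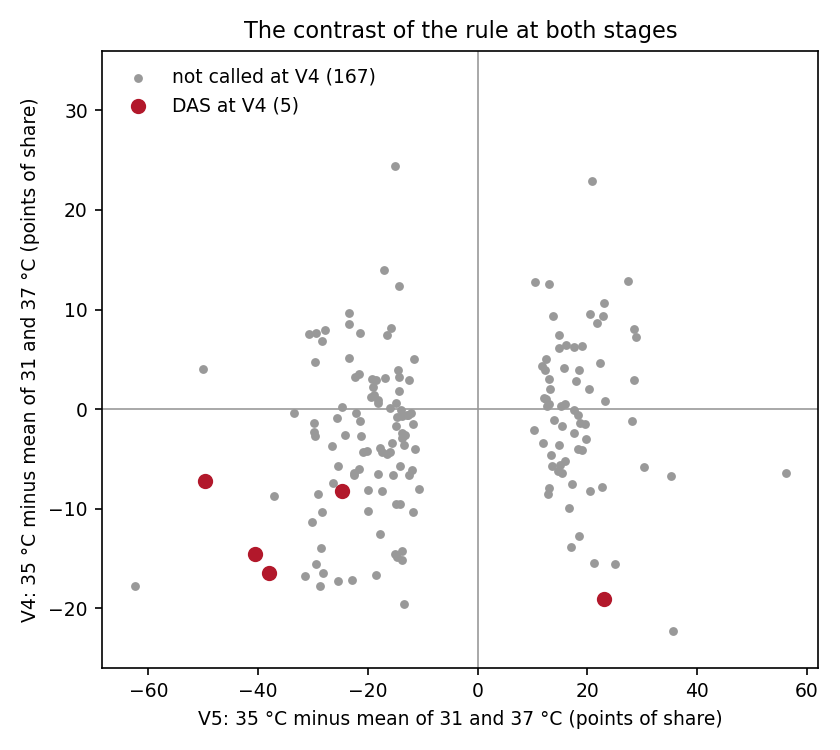
Difference between 35°C and the mean of 31°C and 37°C in points of share at V5 (horizontal, where the rule keeps the members away from 0) and at V4 (vertical) for the 172 members tested at V4. The 5 DAS events of V4 are red, 4 at the lower left and the Zm00001d040979 intron at the lower right.

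The other named regulators were not called at V4. The SR34 exon had V4 means of 73.7% ± 11.8 (SD, n = 3) at 31°C, 68.7% ± 7.82 at 35°C and 71.2% ± 4.93 at 37°C, and its groups overlapped (FDR = 0.907). The SPFcc1-like intron had 86.1%, 80.3% and 77.4% (FDR = 0.890). The intron of Zm00001d026511 that was at 73.9% at V5 35°C was at 10.0%, 8.33% and 3.12% at V4 35°C (FDR = 0.827), with 1 library at 31°C lacking a value. The intron of Zm00001d025449 had a V4 mean of 53.4% ± 16.5 at 35°C (FDR = 0.739), and that of Zm00001d046300 was 69.0% at 35°C against 58.8% at 31°C and 62.9% at 37°C (FDR = 0.521). The 2 introns of the CAU1 homolog had V4 contrasts of 7.92 points (FDR = 0.808) and 13.9 points (FDR = 0.375), both with the opposite sign to V5. A p that misses the threshold does not show that these shares were equal.

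Counted over all members tested, the V4 contrast was negative in 70 of the 103 lower members tested, with a median of -2.75 points, beside 54.2% and -0.19 points over all 5807 events. It was negative in 35 of the 69 higher members, with a median of -0.05 points. More lower members than higher ones thus had the sign they had at V5, and the difference between these counts was not tested. The libraries at 35°C lay clear of all at 31°C and 37°C in the direction of V5 in 12 of the 86 lower members with a value in all 9 libraries and a mean of 20 reads (3.02% of all 3511 such events) and in 2 of the 57 such higher members (1.57%). They lay clear in the opposite direction in 1 lower and 1 higher member. When the rule was applied to the V4 libraries, an alternative chosen after seeing the data, 8 of the 86 lower members met it in the same direction, as did 1.08% of all such events, and 0 in the opposite direction. Of the 57 higher members, 1 met it in the same direction, as did 0.627% of all such events, and 0 in the opposite one. Most V4 libraries had fewer reads than the V5 libraries.

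The steps between single MDTs at V4 gave few calls. For 35°C/31°C MDT, 5 of 171 members were DAS events (0.717% of all 6420 events, 0.28% higher and 0.436% lower): the SR45a pair, Zm00001d027756 and Zm00001d040979, all lower, and an intron of 160 bases of Zm00001d042940 that was retained in 66.8% ± 4.07 (SD, n = 3) at 31°C and 87.4% ± 1.44 at 35°C (difference 20.6 points, FDR = 0.00999). This last call was lost without 31°C replicate 1 or 3 or any library at 35°C, with an FDR of 0.0193 to 0.0449. For 37°C/31°C, 2 of 173 members were called (1.49% of all 6246 events, 0.785% higher and 0.704% lower), Zm00001d027756 and Zm00001d040979, both lower, and 5 were called without 37°C replicate 1. The SR45a event of 207 bases was 6.72 points lower there, with an FDR of 0.0336. For 37°C/35°C none of 180 members was called by the quasi-binomial model, nor by edgeR, beside 2 of all 6687 events (0.0299%, 0.015% in each direction), and 33 members had an unadjusted p under 0.05, as had 11.1% of all events. The SR45a event of 207 bases was 11.2 points higher at 37°C than at 35°C there, with an FDR of 0.0144 that missed the limit, and the event of 210 bases was 12.4 points higher (FDR = 0.0161). Both were called in the fit with all 4 V4 groups (FDR = 0.000949 and 0.00129) and with a replicate block (FDR = 0.000218 and 0.000358), as was the Zm00001d040979 intron. Without 37°C replicate 1, 2 or 3 the called members were 2, 3 and 1. In limma tests of the log2 ratio of reads no event was called in any of the 4 V4 comparisons, beside 16 to 34 members per comparison with an unadjusted p under 0.05. With the limma fit on ψ included, these were 12.2% of the members for 35°C against both other MDTs, against 9.39% to 9.90% of all events. For 35°C/31°C they were 16.4% to 19.9%, against 12.6% to 13.1%. For 37°C/31°C they were 11.0% to 12.1%, against 16.2% to 17.3%, and for 37°C/35°C 8.89% to 10%, against 9.71% to 10.5%.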

How the data were processed

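Per the labels and the methods, the authors sequenced poly(A) RNA, aligned reads with HISAT2 2.0.4 to B73 RefGen_V4 and detected AS events with rMATS. The deposited counts are raw reads of the inclusion and the skipping isoform, listed only where both had reads. The deposited fraction ψ is the authors' inclusion level after division by effective length. Starts were read as 0-based and are printed 1-based.

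At V4, 5 columns could not be assigned to a sample by name and were not used. For replicates 2 and 3 at 31°C the inclusion reads were therefore recovered from ψ, the skipping reads and the length ratio (8817 and 9087 events, with an uncertainty from the rounding of ψ under 5% in 91.6% and 91.1%). V4 contrasts were fitted on the whole table by a quasi-binomial model in R 4.3.3, with the residual deviance moderated by limma 3.58.1 and not below 1, and a two-sided F test adjusted by Benjamini-Hochberg over all events that averaged 10 reads or more and had values in at least 2 of 3 libraries of each group. The alternatives used edgeR 4.0.16, limma on log2 ratios (0.5 added), other filters, left-out libraries and a replicate block. The test was tested on simulated data. Python 3.11.15 and pandas 2.3.3 read the tables. Events were called DAS where the FDR did not exceed 0.01 and the difference exceeded 5 points.

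The members and lists were chosen with earlier results of these data known. Named events are the 20 largest shifts, members of genes the study names, V4 calls, events beside the limit and genes with several members. The authors' own comparisons were not used. Repeated heading lines, 4 per stage, were left out. Sequences are not printed, since a genome of this build was not used here. Per the labels' protocol, the 3 libraries of a group came from different plants. The p-values set a difference against the spread between these libraries, as moderated over all events. Where that spread was below the counting error of the reads, the counting error took its place.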

Additional observations from a re-analysis of the deposited data

Results flagged for a closer look

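The intron of Zm00001d040979 moved in opposite directions at the 2 stages. At V4 its retention at 35°C was lower than at 31°C by a difference of -31.7 points, with all 3 libraries at 35°C below all 3 at 31°C. At V5 it was 17.4 points higher, with all 3 libraries above. The difference between the stages was not tested, because the V5 values chose the event.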

How the results depend on the processing

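The number of members depended on the limits of the rule. It was 292 with a minimum difference of 5 points, 95 with 15 points, 53 with 20 points and 341 when libraries were allowed to overlap. The deposited ψ in place of the share also gave 188 events, of which 146 were the same. Leaving out single libraries, which loosens the condition on overlap, gave 192 to 274 events, of which 166 to 183 were among the 188. At V4, limma on the log2 ratio of reads (with 0.5 or 1 added) or on ψ called 0 members and 0 events in all 4 comparisons. In these fits 16 to 34 members per comparison had an unadjusted p under 0.05 (8.89% to 19.9%, against 9.39% to 17.3% of all events). The members lay above all events for 35°C against both other MDTs and for 35°C/31°C, below them for 37°C/31°C and near them for 37°C/35°C. For 35°C against both other MDTs, 8 members and 52 events were called at an FDR of 0.05, 3 members with a difference above 10 points and 13 events with edgeR. For 35°C/31°C an FDR of 0.05 gave 111 events. For 37°C/31°C it gave 8 members and 254 events, and the fit with all 4 groups gave 4 members. For 37°C/35°C, 3 members were called with the FDR within each type (9 events), at an FDR of 0.05 (26 events) and with all 4 groups (20 events). Leaving out 1 library gave 4 to 6 members and 11 to 26 events for 35°C against both, 4 to 7 members and 22 to 48 events for 35°C/31°C, 0 to 3 members and 2 to 17 events for 37°C/35°C and 2 to 5 members and 44 to 81 events for 37°C/31°C. Counts of events moved by over 1.5 times without 35°C replicate 3 for 35°C against both, without 31°C replicate 1 or 35°C replicate 3 for 35°C/31°C, without any library at 37°C for 37°C/35°C, and without 31°C replicate 3 or 37°C replicate 3 for 37°C/31°C, and so did members at 37°C/31°C without 37°C replicate 1. The call of Zm00001d042940 was lost in 11 of 17 alternatives (FDR from 0.00636 to 0.238). The calls of SR45a, Zm00001d027756 and Zm00001d040979 were lost with limma in every comparison. In the contrast with both, Zm00001d027756 also fell short of a difference of 10 points. No called difference changed sign. The causes were not tested.

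Replicate numbers gave no sign of a pairing of the samples. The deviations of libraries with the same number correlated by -0.04 to 0.04 at V4 and by -0.02 to 0.05 at V5. Counting error of the reads lowers such correlations, so these values cannot exclude a pairing. With the replicate block, the V4 calls were 4 members and 16 events for 35°C against both, 6 and 65 for 35°C/31°C, 3 and 31 for 37°C/35°C, and 2 and 101 for 37°C/31°C.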
